A study of Mus musculus with 48 samples.

Results

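The genes described here are 8 transcription factor genes that pattern the gut along its length: Gata4, Gata5, Gata6, Pdx1, Onecut2, Osr2, Cdx1 and Cdx2. They were chosen by symbol from the 54532 genes of a table of mouse small intestine. The rule held no measured value, but earlier results of these data were known when the genes were chosen. All 8 had a row in the table, and all 8 were among the 21986 genes that passed a filter on low counts and were tested. Total RNA was sequenced from the first 2 cm of intestine below the stomach outlet (duodenum) and from the last 2 cm before the caecum (ileum). The animals were C57Bl/6J mice from a commercial supplier, of both sexes and with no engineered allele, taken at birth (day 0), at days 2, 4, 6 and 8, and at weeks 2, 3 and 4. A litter usually gave 2 or 3 of the ages, the pups stayed with the dam to day 21 and ate standard chow afterwards, and the labels describe the housing as germ-free. Each of the 16 groups of region and age has 3 labelled samples, 48 in all, and 46 were used.

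GATA4, GATA5 and GATA6 are zinc finger proteins that bind the same core DNA motif in endoderm and heart, and in the adult mouse gut GATA4 is known for holding the proximal programme of absorption and for keeping ileal genes silent in the jejunum. PDX1 is a homeodomain factor of the duodenum, the distal stomach and the pancreas, and ONECUT2 carries a cut domain and a homeodomain and is known from liver, pancreas and duodenum. CDX1 and CDX2 are homeodomain factors of the caudal type, and CDX2 is the factor that gives gut endoderm its intestinal rather than gastric identity. OSR2 is an odd-skipped zinc finger protein, best known from palate, limb and kidney development.

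Pdx1 and Cdx2 are neighbours on chromosome 5 (GRCm38), on opposite strands and 25 kb apart, and belong to the ParaHox cluster. They are shown together because these neighbours had the widest and the narrowest regional difference of the 8 genes. The stretches below are from RefSeq promoter windows on GRCm38.p6, ending at the base before the gene's first base in GENCODE M21, with every match to the CCAAT box (letters CCAAT, either strand) in capitals.
Pdx1, chr5:147269847-147269958, plus strand: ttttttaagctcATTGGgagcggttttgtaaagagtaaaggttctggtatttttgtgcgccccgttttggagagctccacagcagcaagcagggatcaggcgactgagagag
Cdx2, chr5:147307271-147307499, minus strand: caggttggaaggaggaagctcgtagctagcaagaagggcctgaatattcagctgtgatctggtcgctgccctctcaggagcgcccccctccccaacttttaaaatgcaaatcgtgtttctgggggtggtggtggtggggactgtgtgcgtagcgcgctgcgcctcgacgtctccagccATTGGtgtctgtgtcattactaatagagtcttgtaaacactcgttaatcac
The Pdx1 stretch of 112 bases held 1 CCAAT box, which 15.2% of 32841 mouse promoters hold in the first 112 bases of their RefSeq windows. The Cdx2 stretch of 229 bases held 1, as 32.1% do in the first 229 bases. These shares are counted from the upstream end of each window, not back from a gene's first base in GENCODE. Neither stretch held the letters AGATAA of a GATA motif, TTTATNG of a CDX motif or TATAAA of a TATA box on either strand, and these matches are a description of the letters only. RefSeq windows of 3 of the 8 genes were used, and not all of the 8 were looked up.

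In GENCODE M21 on GRCm38 the gene bodies were Gata4 at chr14:63198922-63271692, Gata5 at chr2:180325133-180334699, Pdx1 at chr5:147269959-147275848, Osr2 at chr15:35296098-35303305 and Cdx2 at chr5:147300805-147307270. The levels are of the whole gene.

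The 46 samples held 16824021 to 65042327 estimated counts each. The sample numbered 3 at day 6 was left out in both regions because each looked like the other region. Over the 21978 tested genes other than the 8, the one labelled duodenum had a rank correlation of 0.936 with the other day 6 duodenum samples and 0.988 with the ileum samples, and the one labelled ileum had 0.936 and 0.98. The other samples at each age are taken under their labels. Nothing in the labels says whether samples of a group were separate animals or litters, so p-values measure the spread between these samples.

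Averaged over the 8 ages, 5 of the 8 genes differed between the regions: Pdx1, Onecut2, Gata4 and Gata6 were lower in the ileum and Osr2 was higher there. With edgeR's quasi-likelihood test and Benjamini-Hochberg adjustment at 0.05, 62.1% of all tested genes were called in this comparison, so a count of 5 in 8 is near the background. The size of the differences set some of them apart: ordered from the most duodenal of 21986 genes, Pdx1 stood at place 22, Onecut2 at 33 and Gata4 at 383, while Gata6 stood at 5381. The median log2 difference (ileum minus duodenum) was -0.22 over the 8 genes and 0.08 over all genes. Gata5, Cdx1 and Cdx2 did not pass the test in the average over ages. Of the genes tested, 30.2% were called lower and 31.9% higher in the ileum, against 4 and 1 of the 8. Levels are given as CPM, a count scaled to a common library size.

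**Figure D1:**
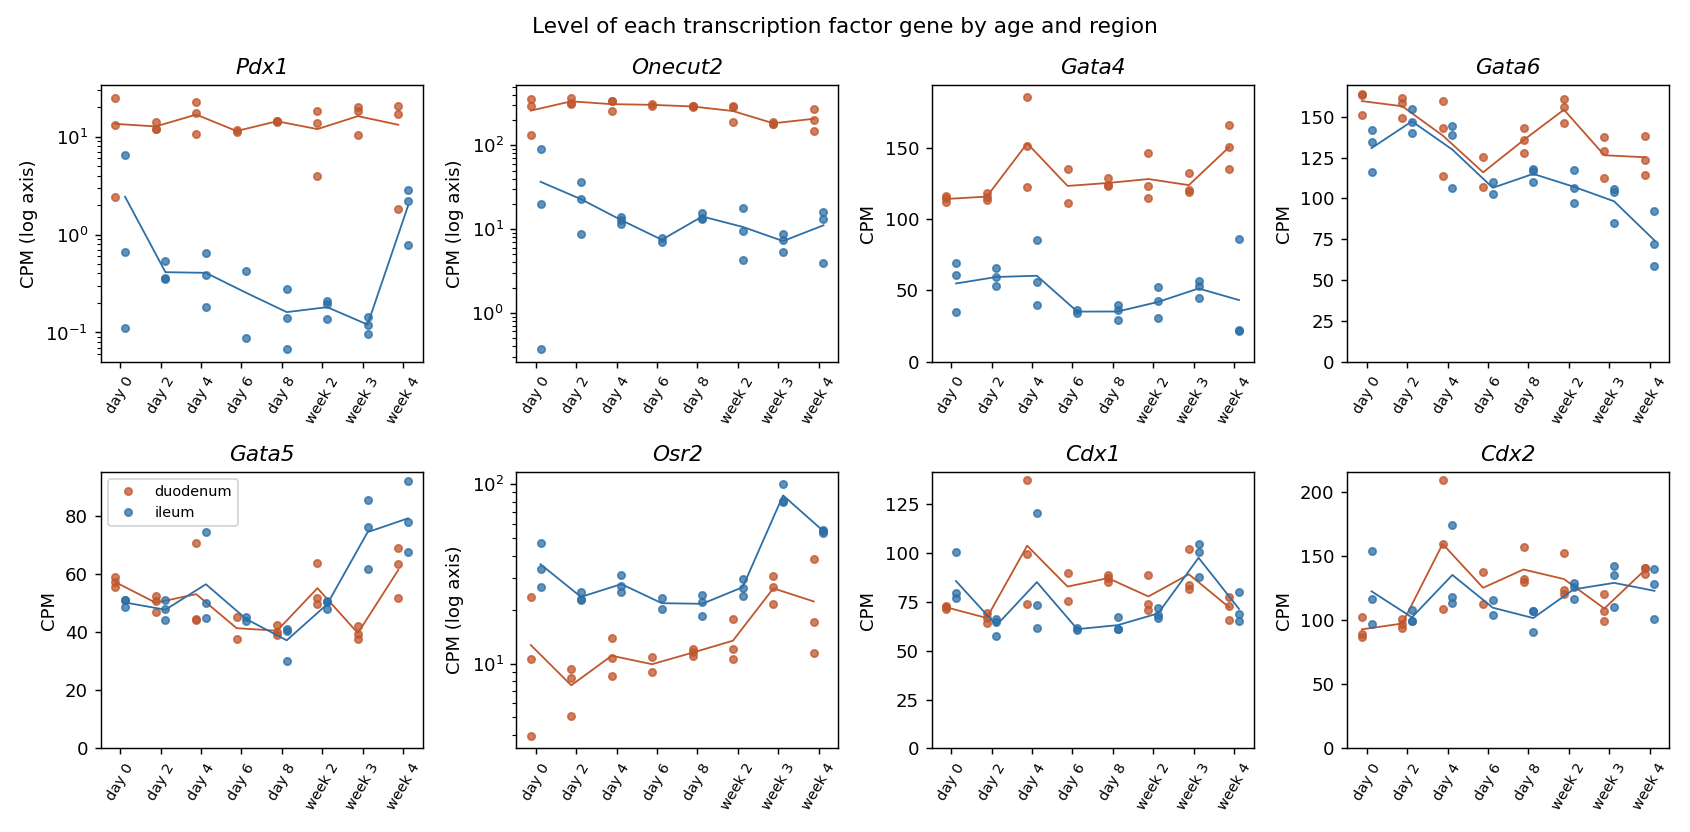
Level of each gene in CPM (y axis, logarithmic for Pdx1, Onecut2 and Osr2) at the 8 ages (x axis), with a point per sample and a line through the group means, duodenum in orange and ileum in blue. All Gata4 and Onecut2 points of the duodenum lie above all points of the ileum, and Cdx2 points of both regions intermingle.

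Pdx1 was the most regional of the genes, at 1.81, 14.1 and 25.0 CPM (lowest, median and highest of 23 samples) in the duodenum and 0.0678, 0.275 and 6.51 CPM in the ileum. At 6 of 8 ages every duodenum value exceeded every ileum value, and the groups overlapped at day 0 and week 4. The share of all genes with such a count of ages was not computed. The log2 difference averaged over ages was -5.09 (SE 0.37, edgeR adjusted p = 4.02e-13), a 34-fold lower level in the ileum. Ileal libraries held 2 to 156 estimated counts of Pdx1, so the ileal level rests on few reads and its fold carries the widest error of the 8 genes.

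Pdx1 varied within several groups. Duodenum samples 1 to 3 of day 0 held 2.41, 13 and 25.0 CPM. Those of week 2 held 18.0, 3.99 and 13.7 CPM, and those of week 4 held 20.7, 1.81 and 17 CPM. The ileum samples of day 0 held 0.111, 6.51 and 0.665 CPM. One sample in each of these 4 groups stood toward the level of the other region, while at day 8 the duodenum values of 14.4, 14.2 and 14.3 CPM were nearly equal.

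The difference in Pdx1 passed the test at 7 of 8 ages, from -2.81 on the log2 scale at week 4 to -7.03 at week 3. At day 0 it was -2.52 (SE 0.80) and missed the threshold (edgeR adjusted p = 0.0567), and without ileum sample 2 it was -5.0 (edgeR adjusted p = 0.000734). At week 4 it was -2.81 (SE 0.84, edgeR adjusted p = 0.0136), with ileum values of 2.21, 0.776 and 2.87 CPM. All 3 ileum samples of week 4 were above the 0.120, 0.0965 and 0.145 CPM of week 3, and the week 4 difference lay between -3.36 and -2.35 under every alternative run. That call was lost without duodenum sample 1 (-2.35, edgeR adjusted p = 0.0585) or ileum sample 2 (-2.39, edgeR adjusted p = 0.063). It was also lost with all 48 samples and with only the compared groups fitted, at most to an edgeR adjusted p of 0.107.

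Pdx1 overlaps Plut, a non-coding gene on the opposite strand, which had median levels of 4.87 CPM in the duodenum and 0.158 CPM in the ileum. Plut differed by -4.68 on the log2 scale (SE 0.34, edgeR adjusted p = 7.12e-14), a difference close to that of Pdx1. Whether the counting used strand is not given in the sources used here, so reads of this pair cannot be told apart where they overlap. Gata5 likewise overlaps Gata5os (medians 4.07 and 9.91 CPM), and Gata6 overlaps 1010001N08Rik (18.3 and 17.1 CPM), both on the opposite strand.

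Onecut2 was the second most regional gene, at 133, 291 and 372 CPM in the duodenum and 0.370, 12.9 and 89.8 CPM in the ileum. The lowest duodenum sample lay above the highest ileum sample, a full separation that 0.0318% of tested genes showed in this direction, 7 in number, and 0.0682% in the other. Those 7 were Onecut2, Gata4, Ddi2, Dlat, Prdm16os, Slc27a2 and Slc4a5, chosen here for that separation after their values were seen. The log2 difference averaged over ages was -4.32 (SE 0.31, edgeR adjusted p = 2.81e-13), and it passed the test at each of the 8 ages.

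The extremes of Onecut2 fell in the samples that were extreme for Pdx1. At day 0 the duodenum values were 133, 292 and 354 CPM and the ileum values 0.370, 89.8 and 19.9 CPM. At week 4 the duodenum values were 273, 149 and 201 CPM. Duodenum sample 1 at day 0, duodenum sample 2 at week 4 and ileum sample 2 at day 0 were the same samples that had the outlying Pdx1 values. The day 0 difference of -2.83 (SE 0.74, edgeR adjusted p = 0.0188) became -4.65 without ileum sample 2, and lost its call without duodenum sample 2 (edgeR adjusted p = 0.0516), duodenum sample 3 (0.0852) or ileum sample 3 (0.101). It also lost its call with all 48 samples and with only the compared groups fitted, at most to an edgeR adjusted p of 0.392.

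Gata4 was well expressed in both regions, at 111, 123 and 186 CPM in the duodenum and 21.1, 44.3 and 85.9 CPM in the ileum. Every duodenum sample lay above every ileum sample, and the groups stood apart at all 8 ages, as for 1.01% of tested genes. The log2 difference was -1.46 (SE 0.11, edgeR adjusted p = 2.48e-13), 2.76-fold lower in the ileum. It passed the test at each age, from -0.96 at day 2 (edgeR adjusted p = 0.0451) to -1.83 at day 8 (edgeR adjusted p = 4.09e-05). The calls at days 0 and 2 rest on the full set of samples: leaving out any one of 5 samples at day 0, or of 6 at day 2, ended the call.

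Ileum sample 1 at week 4 stood apart within its group for Gata4, with 85.9 CPM against 21.1 and 22.3 CPM. Without it the week 4 difference was -2.81 rather than -1.81. The same sample held 41.7 CPM of Fabp6, the ileal bile acid binding protein, against 1256 and 1937 CPM in the other two. Of 8 listed genes of the proximal enterocyte it had the highest level of its group for 6, and of 8 listed distal genes it had the lowest level for 5.

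Gata6 differed less, at 107, 143 and 164 CPM in the duodenum and 58.7, 110 and 155 CPM in the ileum. The groups overlapped at days 2, 4 and 6 and stood apart, duodenum above, at the other 5 ages. The share of all genes apart at that many ages was not computed. Averaged over ages the log2 difference was -0.31 (SE 0.05, edgeR adjusted p = 2.64e-06). At single ages it passed the test at week 2 (-0.53, edgeR adjusted p = 0.00646) and week 4 (-0.75, edgeR adjusted p = 0.000201). It did not pass at day 0, day 8 or week 3 (edgeR adjusted p = 0.264, 0.178 and 0.0805), where the groups also stood apart.

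Gata5 had nearly equal medians, 49.8 CPM in the duodenum and 50.3 CPM in the ileum, and its average difference of 0.12 (95% interval -0.0021 to 0.24) missed the threshold (edgeR adjusted p = 0.0925). It passed under 11 of 53 alternatives, DESeq2 among them, with the same sign in all 53. At week 3, however, the duodenum held 37.6, 39.3 and 42.0 CPM and the ileum 61.6, 85.3 and 76.2 CPM, with no overlap. The week 3 log2 difference was 0.91 (SE 0.17, edgeR adjusted p = 0.000252), so at that age Gata4 and Gata5 differed between the regions in opposite directions.

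Osr2 was the one gene of the 8 that was higher in the ileum on average, at 3.95, 11.4 and 38.2 CPM in the duodenum and 18.4, 26.8 and 100 CPM in the ileum. Within each of the 8 ages every ileum value exceeded every duodenum value, as for 0.7% of tested genes, although the regions overlapped across ages. The log2 difference averaged over ages was 1.31 (SE 0.13, edgeR adjusted p = 1.31e-10), 2.49-fold higher in the ileum. It passed the test at each age, from 0.91 at day 8 (edgeR adjusted p = 0.0414) to 1.72 at week 3 (edgeR adjusted p = 0.00118). The calls at days 0, 6 and 8 and weeks 2 and 4 were lost when particular samples were left out, at the extreme to an adjusted p of 0.205 at day 6 without duodenum sample 1.

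At day 0 Osr2 was at 23.4, 10.7 and 3.95 CPM in the duodenum and 47.0, 26.8 and 33.6 CPM in the ileum. At week 4 it was at 11.4, 38.2 and 16.9 CPM in the duodenum and 55.2, 55.3 and 53.7 CPM in the ileum. The duodenum samples that were low for Pdx1 and Onecut2 at these ages were the ones high for Osr2. Without duodenum sample 1 the day 0 difference was 2.33, and without duodenum sample 2 the week 4 difference was 1.92.

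Cdx1 and Cdx2 were near equal in both regions. Cdx1 stood at 64.2, 75.7 and 138 CPM in the duodenum and 57.6, 68.4 and 121 CPM in the ileum, and Cdx2 at 86.5, 120 and 210 CPM and 90.9, 116 and 174 CPM. The average differences of -0.14 for Cdx1 (95% interval -0.26 to -0.01, edgeR adjusted p = 0.0597) and -0.06 for Cdx2 (95% interval -0.18 to 0.07, edgeR adjusted p = 0.477) missed the threshold. For Cdx2 that interval leaves room for at most a small difference in either direction, and for Cdx1 the test passed under 7 of 53 alternatives. At day 8 both were called lower in the ileum, with log2 differences of -0.47 for Cdx1 (edgeR adjusted p = 0.0303) and -0.46 for Cdx2 (edgeR adjusted p = 0.0383), and both calls were lost under relative log expression scaling (edgeR adjusted p = 0.0708 and 0.086). Each call was also lost without any one of 5 of the 6 samples, to an adjusted p of at most 0.0824 for Cdx1 and 0.159 for Cdx2. At the same age 39.6% of all genes were called. Of 8 epithelial markers 5 were called, all lower in the ileum, with a median of -0.52, and all 6 fibroblast markers were called higher, with a median of 3.29. The part of these markers in the CDX differences was not tested.

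**Figure D2:**
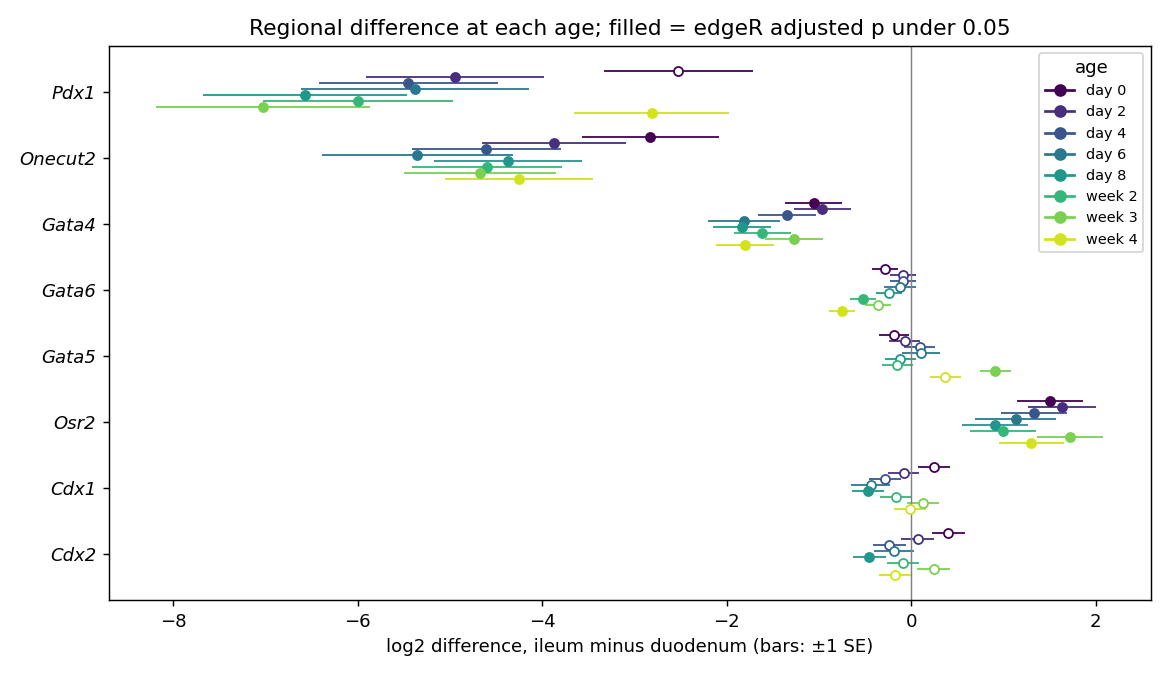
Log2 difference of ileum minus duodenum (x axis) for each gene (rows) at each age (colour), with bars of 1 SE and filled points where the edgeR adjusted p is under 0.05. Pdx1, Onecut2 and Gata4 lie left of 0 and Osr2 right of 0 at all 8 ages, while Gata5 is right of 0 beyond its error at week 3.

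Age by age, 3 of the 8 genes were called at day 0 (6.1% of all genes), 4 at day 2 (8.01%), 4 at day 4 (26.6%), 4 at day 6 (35.3%) and 6 at day 8 (39.6%). At weeks 2, 3 and 4 there were 5 called at each, against 22.4%, 14.2% and 28.4% of all genes. The core of these counts was the same at every age: Gata4 and Onecut2 lower and Osr2 higher in the ileum, all 3 called at each of the 8 ages.

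Per kilobase of exon, which allows levels of different genes to be set side by side, the mean duodenal CPM was 55.0 for Cdx2, 46.6 for Cdx1, 33.1 for Gata4, 21.4 for Gata6, 16.5 for Onecut2, 15.2 for Gata5, 6.36 for Pdx1 and 3.95 for Osr2. In the ileum the order was Cdx2 (52.4), Cdx1 (42.6), Gata6 (17.5), Gata5 (16.7), Gata4 (12.2), Osr2 (10.3), Onecut2 (0.945) and Pdx1 (0.343). The CDX genes led in both regions, and Onecut2 passed from the fifth place to the seventh.

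The members' course over the first 4 weeks was tested within each region. In the duodenum 5 of the 8 genes varied over the 8 ages (Gata5, Gata6, Osr2, Cdx1 and Cdx2), against 67.4% of all genes, and in the ileum 5 did (Gata5, Gata6, Pdx1, Osr2 and Cdx1), against 58.7%. Both counts are near the background, and the duodenal call of Gata6 (edgeR adjusted p = 0.0437) was lost without any one of many samples, at most to 0.13 without day 6 sample 1. The duodenal call of Cdx1 (edgeR adjusted p = 0.0263) was lost under 6 of 31 alternatives, at most to 0.127. The duodenal age means of Onecut2 and Pdx1 spanned 183 to 335 CPM and 11.4 to 16.8 CPM and the age effect was not called (edgeR adjusted p = 0.928 and 0.995). The Gata4 mean in the duodenum ranged 1.34-fold, between 114 ± 2.2 CPM at day 0 and 153 ± 32 CPM at day 4 (SD over 3 samples).

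By age, the group means of Gata4 in the ileum were 54.7, 59.3 and 60.2 CPM at days 0, 2 and 4, then 35.0 and 35.1 CPM at days 6 and 8, and 41.8, 51.3 and 43.1 CPM at weeks 2, 3 and 4, with SDs of 1.2 to 37 CPM. Onecut2 in the duodenum went from 260 CPM at day 0 over 335, 310, 304 and 291 CPM at days 2, 4, 6 and 8 to 257, 183 and 208 CPM at weeks 2, 3 and 4. The 3 duodenum samples of week 3 held 181, 191 and 178 CPM of Onecut2, below every duodenum sample of days 2 to 8. In the ileum the Onecut2 means lay between 7.19 CPM at week 3 and 36.7 CPM at day 0, the latter with an SD of 47 CPM and sample 2 at 89.8 CPM.

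Gata6 means in the duodenum were 160, 157, 139, 116, 136, 154, 126 and 125 CPM in order of age, so the course was not a steady decline. In the ileum they were 131, 147, 130, 107, 115, 107, 98.3 and 74.3 CPM, lowest at week 4. Cdx2 means in the duodenum lay between 92.8 CPM at day 0 and 160 CPM at day 4, and in the ileum between 102 CPM at day 8 and 135 CPM at day 4. The day 4 groups had the widest spread for both CDX genes, with SDs of 32 and 31 CPM for Cdx1 and 50 and 34 CPM for Cdx2, and the highest sample was duodenum sample 3 and ileum sample 2 for both genes. The epithelial markers summed to 4339, 5098 and 6665 CPM in duodenum samples 1 to 3 of day 4. In the ileum samples of day 4 they summed to 4384, 5941 and 4214 CPM, and their part in this spread was not tested.

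Osr2 rose in the ileum from week 2 to week 3. The ileum samples of week 2 held 23.9, 29.7 and 26.4 CPM, and those of week 3 held 79.5, 100 and 80.4 CPM, with no overlap. The rise was 1.70 on the log2 scale (SE 0.36, edgeR adjusted p = 0.000335), 3.25-fold. In the duodenum the values went from 10.6, 17.6 and 12 CPM to 30.6, 21.5 and 26.7 CPM, also without overlap, and the change of 0.97 (SE 0.36) missed the threshold (edgeR adjusted p = 0.0533). The difference between the 2 changes was 0.73 (SE 0.50, edgeR adjusted p = 0.748), so a difference between regions was not shown.

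Gata5 moved in opposite directions at the same step. In the ileum it went from 50.6, 47.8 and 50.3 CPM at week 2 to 61.6, 85.3 and 76.2 CPM at week 3, a rise of 0.59 (SE 0.17, edgeR adjusted p = 0.00698). In the duodenum it went from 63.9, 51.6 and 49.8 CPM to 37.6, 39.3 and 42.0 CPM, a log2 change of -0.48 (SE 0.17, edgeR adjusted p = 0.0417). That fall lost its call without any one of 5 of the 6 samples, and the rise did so without ileum week 3 sample 2 (0.47, edgeR adjusted p = 0.0588). The groups did not overlap in either region. The ileal change minus the duodenal change was 1.06 (SE 0.24, edgeR adjusted p = 0.0115), in a test added after the values were seen that called 1.38% of all genes, and it missed the threshold without duodenum week 2 sample 1 (0.94, edgeR adjusted p = 0.0563) or ileum week 3 sample 2 (0.95, edgeR adjusted p = 0.0561).

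Cdx1 also rose in the ileum from week 2 to week 3, from 67.1, 68.4 and 72.1 CPM to 100, 105 and 87.8 CPM (log2 change 0.50, SE 0.17, edgeR adjusted p = 0.0285), a call lost without any one of 5 of the 6 samples. With Osr2 and Gata5 that makes 3 of the 8 genes called, against 26.8% of all genes at this step in the ileum. In the duodenum Gata5 alone was called of the 8, against 18.3% of all genes.

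**Figure D3:**
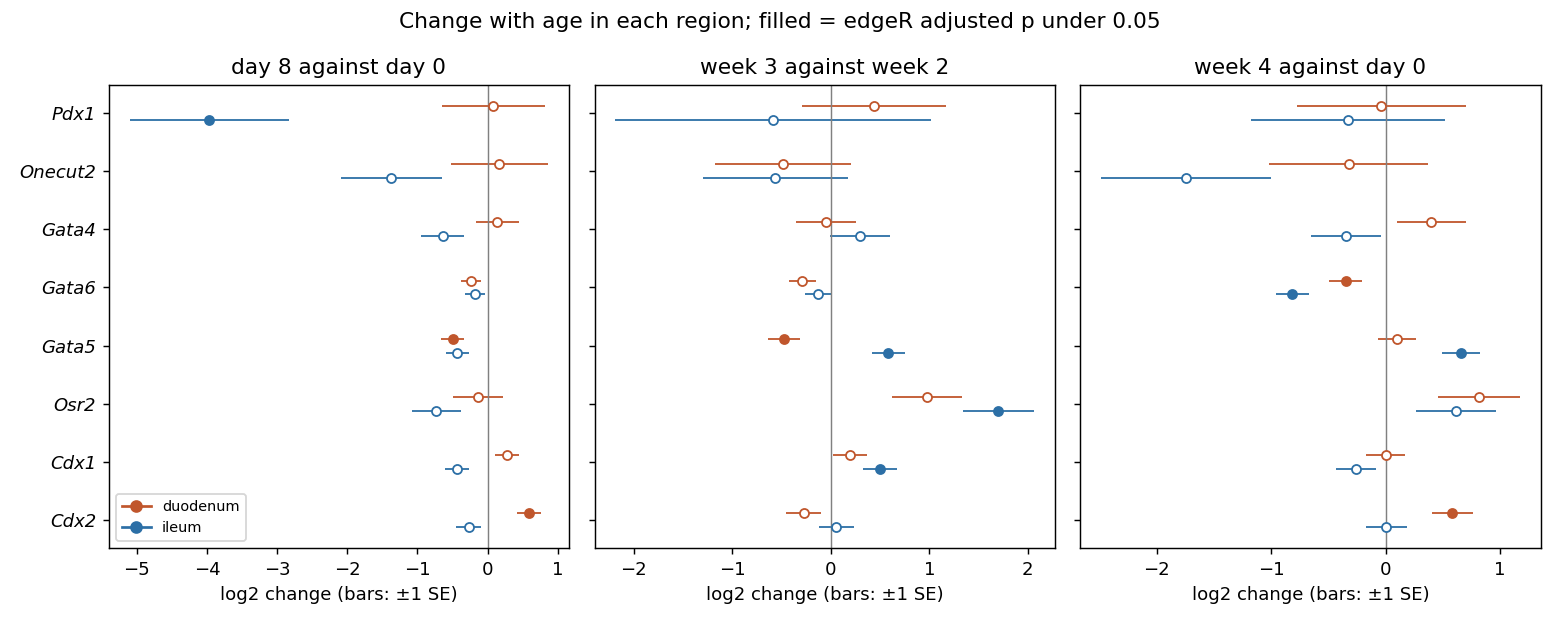
Log2 change (x axis, bars of 1 SE) of each gene (rows) from day 0 to day 8, week 2 to week 3 and day 0 to week 4, duodenum in orange and ileum in blue, filled where the edgeR adjusted p is under 0.05. Gata5 lies on opposite sides of 0 in the 2 regions at the step from week 2 to week 3, and Gata6 lies left of 0 in both regions from day 0 to week 4.

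Gata6 was lower at week 4 than at day 0 in both regions. In the ileum it went from 134, 142 and 116 CPM at day 0 to 92.3, 71.8 and 58.7 CPM at week 4, with no overlap, a log2 change of -0.82 (SE 0.14, edgeR adjusted p = 1.15e-05). In the duodenum it went from 164, 151 and 163 CPM to 123, 114 and 138 CPM, a log2 change of -0.35 (SE 0.14, edgeR adjusted p = 0.0449), a call lost when any one of the 6 samples was left out. Gata5 rose over the same span in the ileum (0.66, SE 0.17, edgeR adjusted p = 0.00157), from 48.6, 51.0 and 50.9 CPM to 92.1, 77.7 and 67.5 CPM. Cdx2 rose in the duodenum (0.58, SE 0.18, edgeR adjusted p = 0.00794), from 103, 86.5 and 89.4 CPM to 136, 140 and 140 CPM. Over this span 2 of the 8 genes were called in each region, against 40.5% of all genes for the duodenum and 41.9% for the ileum. Of 8 epithelial markers, 7 were called higher at week 4 in the duodenum, with a median log2 change of 1.03. In the ileum 7 were called higher and 1 lower, with a median of 0.887. The part of these markers in the changes of Gata6, Gata5 and Cdx2 was not tested.

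Cdx2 was higher by a like amount at day 8, when the duodenum held 157, 130 and 132 CPM (0.59 against day 0, SE 0.18, edgeR adjusted p = 0.00711). The duodenum samples of week 3 held 120, 99.5 and 107 CPM of Cdx2, so the course was not a steady rise. In the ileum Cdx2 was at 154, 116 and 97.1 CPM at day 0 and 90.9, 107 and 107 CPM at day 8. The ileal change minus the duodenal change was -0.86 (SE 0.25, edgeR adjusted p = 0.0276), in a test added after the values were seen that called 10.1% of all genes, and it was -0.66 (edgeR adjusted p = 0.115) without ileum day 0 sample 1. Under 7 of 18 alternatives the call was lost. In the same test the 8 epithelial markers had a median of -0.66 with 1 called, and the 15 other epithelial factors a median of -0.445 with 4 called, 3 of them lower; their part was not tested. Gata5 fell in the duodenum from day 0 to day 8 (-0.50, SE 0.17, edgeR adjusted p = 0.0149), a call lost without duodenum day 8 sample 2 (edgeR adjusted p = 0.0511). With Cdx2 and Gata5, 2 of the 8 genes were called in the duodenum over this span, against 41.2% of all genes, and in the ileum 1 was, against 19.3%. That one was Pdx1, at -3.96 (edgeR adjusted p = 0.0122), and without ileum day 0 sample 2 it was -1.49 (edgeR adjusted p = 0.422).

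Whether the regional difference itself changed over the ages was tested as the interaction of region and age. Gata5 was the one gene of the 8 called (edgeR adjusted p = 0.00718), against 22.4% of all genes. For Gata4 the test gave an adjusted p of 0.425 by edgeR, and 0.0011 without ileum week 4 sample 1. Without that sample Gata4 also changed in the ileum from day 0 to week 4, by -1.38 on the log2 scale (edgeR adjusted p = 2.15e-05), where the full set gave -0.35 (edgeR adjusted p = 0.381).

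Onecut2 and Osr2 ran opposite to each other from sample to sample in the duodenum. Over the 23 duodenum samples their log2 levels had Pearson's r = -0.909 and Spearman's rho = -0.922, each with a permutation p of 1e-05, the smallest the 100000 resamples can give (adjusted 0.00028 over the 56 relations of 28 pairs in 2 regions). The resamples shuffled all samples of a region across ages, so these p-values do not allow for the age groups. After each age's mean was removed r was -0.91, and without the 2 samples farthest from the median of Onecut2 it was -0.912. In the ileum the same pair had r = -0.353 and rho = -0.329 (permutation p = 0.101 and 0.126), and r was -0.712 after the age means were removed.

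Gata4 and Cdx2 rose and fell together over the duodenum samples (r = 0.848, rho = 0.843, permutation p = 1e-05 for both, adjusted 0.00028), with 0.874 after the age means were removed and 0.811 without the 2 farthest samples. Cdx1 and Cdx2 did so in the duodenum (r = 0.719, rho = 0.61) and the ileum (r = 0.743, rho = 0.614), with adjusted permutation p-values of 0.00224 and 0.025, and 0.00084 and 0.0245. Of the 56 relations 8 passed at 0.05 on both measures, 4 in each region. Among them, Gata5 and Osr2 in the ileum had r = 0.812, and 0.34 after the age means were removed, the lowest of the 8. Pdx1 and Onecut2 in the duodenum had r = 0.63 (adjusted permutation p = 0.0155) but rho = 0.202 (adjusted permutation p = 0.484). Without the 2 samples of lowest Pdx1 r was 0.222, so the r of 0.63 rests on those samples. After the age means were removed r was 0.855, with those samples included. The samples share the ages and the library's scaling, and these relations were computed after the values had been seen. The part of the epithelial marker level, which varied between the samples, in these relations was not tested.

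**Figure D4:**
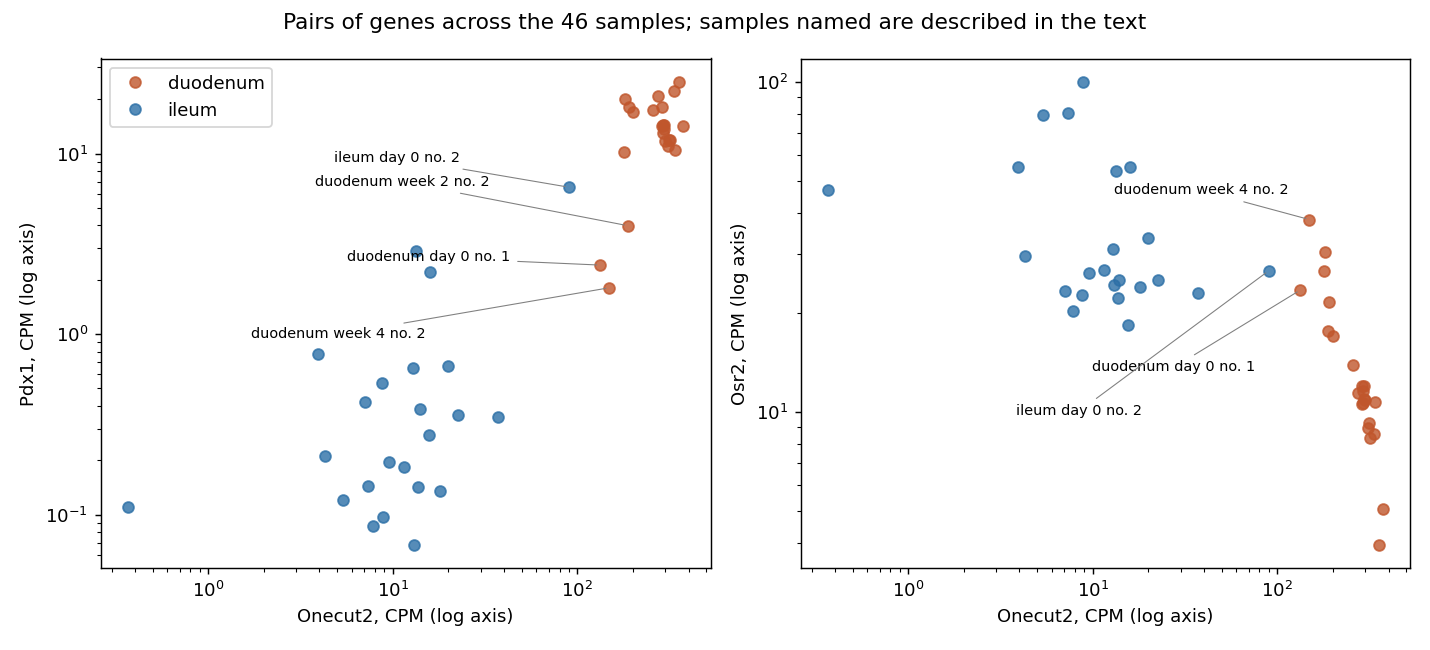
Pdx1 (left) and Osr2 (right) against Onecut2 in CPM, all axes logarithmic, a point for each of the 46 samples, duodenum in orange and ileum in blue. Duodenum points fall along a descending line for Onecut2 and Osr2, and the named samples lie between the main bodies of the 2 regions for Pdx1.

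The outlying samples differed from one another in the other regional genes. In duodenum sample 2 of week 4, 7 of 8 listed distal genes were the highest and 5 of 8 proximal genes the lowest of its group. In duodenum sample 2 of week 2, all 8 of 8 proximal genes were the lowest, among them Ada at 6.96 CPM against 68.1 and 13.7 CPM, while of the 8 distal genes 1 was the highest and 5 were the lowest. In ileum sample 2 of day 0, 4 of 8 proximal genes were the highest and 3 of 8 distal genes the lowest. That sample had a stomach marker sum of 5.60 CPM against 0.370 and 0.523 CPM and an acinar sum of 14.4 CPM against 1.07 and 5.44 CPM, and their part in its Pdx1 level was not tested. Plut, which overlaps Pdx1, stood there at 2.46 CPM against 0.0370 and 0.166 CPM. In duodenum sample 1 of day 0, 4 of 8 proximal genes were the lowest and 5 of 8 distal genes the highest.

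By likeness over the 16 group means of log2 CPM among 13981 genes, the genes closest to Gata4 were Casp6 (r = 0.961) and Ddi2 (0.954), and those closest to Onecut2 were Slc4a5 (0.972) and Gata4 (0.951). Closest to Pdx1 were Onecut2 (0.943) and Plut (0.935), to Osr2 Gsdme (0.946) and P2ry4 (0.932), and to Gata6 Tmem135 (0.954) and Ghitm (0.941). Closest to Gata5 were Baz2a (0.895) and Dgkd (0.88), to Cdx1 Gars (0.859) and Add1 (0.849), and to Cdx2 Unc119b (0.928) and Plekhj1 (0.868). The group means share regions and ages, so these values describe likeness of pattern only. The most opposed pair of the 8 was Onecut2 and Osr2 (-0.81).

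Relatives and partners of these factors were taken as a list of 13, of which 10 could be tested and 8 differed between regions, 5 higher and 3 lower in the ileum, where 62.1% of all genes were called, 31.9% higher and 30.2% lower. Zfpm1, which encodes the GATA cofactor FOG1, was lower in the ileum (log2 -1.33, edgeR adjusted p = 2.54e-15), with medians of 83.4 and 35.2 CPM, a fall like that of Gata4. The odd-skipped paralog Osr1 (2.07, edgeR adjusted p = 1.53e-06), the homeodomain cofactor Meis1 (1.48, edgeR adjusted p = 1.4e-08) and the FOG2 gene Zfpm2 (1.40, edgeR adjusted p = 7.45e-07) were higher in the ileum, with medians of 0.509, 2.74 and 1.29 CPM there. The list's median was 0.20, against 0.08 over all genes, and Onecut1, Cdx4 and Gsx1 were too low to be tested.

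Of 15 other epithelial transcription factors, 12 differed on average, 4 higher and 8 lower in the ileum, against the same 62.1% of all genes. Klf4 (0.87) and Prdm1 (0.69), the BLIMP1 gene that marks suckling epithelium, were higher, and Foxa2 (-0.56) and the crypt factor Sox9 (-0.54) were lower. Nkx6-3, a factor of the distal stomach, was lower in the ileum (-3.93, edgeR adjusted p = 2.71e-08).

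The listed enterocyte genes split by region, and their control by the 8 factors was not tested. Of all genes tested, 62.1% were called in the average over ages, 30.2% lower and 31.9% higher in the ileum. Of 8 proximal genes 6 were lower in the ileum and none was higher, with Ada (-2.49), Adh1 (-1.54), Fabp1 (-1.45) and Rbp2 (-1.24) leading. Of 8 distal genes 7 were higher, with Fabp6 (9.19), Fgf15 (5.99) and Slc10a2 (3.41) leading, and Ggt1, named after its values were seen, was lower (-1.42). Of 9 genes known to depend on CDX2 in mouse gut, 5 were higher and 1 lower in the ileum, a total near the 62.1% of all genes. Muc2 (1.97) and Mep1a (1.51) were the furthest up and Lct (-0.45) was down. The medians of these lists were -1.20, 1.32 and 0.17, against 0.08 over all genes, and these lists were drawn up with earlier results of these samples known.

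Several marker lists moved with the regions. The labels call the samples whole-thickness tissue, and the 8 epithelial markers summed to 3803 to 10440 CPM in the duodenum and 3408 to 10897 CPM in the ileum, whereas the 6 smooth muscle markers summed to 4.68 to 44.5 and 12.9 to 194 CPM. The 6 fibroblast markers summed to 6.08 to 188 CPM in the duodenum and 81.2 to 686 CPM in the ileum. All 6 smooth muscle and all 6 fibroblast genes were called higher in the ileum, against 31.9% of all genes, with median log2 differences of 1.95 and 2.05. Their part in the higher Osr2, Osr1, Meis1 and Zfpm2 of the ileum was not tested. From week 2 to week 3 in the ileum, where Osr2 rose, the fibroblast sum ran from 81.2 to 213 and then from 87.6 to 135 CPM, and the smooth muscle sum from 15.9 to 29.6 and then from 36.7 to 54.8 CPM. The epithelial sum at that step went from 4529, 4535 and 4912 CPM to 9218, 10897 and 8392 CPM, without overlap, and its part in the ileal rises of Osr2, Gata5 and Cdx1 was not tested. In these tissue pieces, fewer cells of a type and less RNA per cell cannot be told apart.

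Pdx1, Gata4, Gata6 and Onecut2 are also genes of the pancreas, which lies against the duodenum. The 10 acinar markers summed to 0.248 to 580 CPM in the duodenum and 0.0583 to 24.5 CPM in the ileum, where Ptf1a was at 0 in all samples. Of the 9 that could be tested 8 were called lower in the ileum, against 30.2% of all genes. The duodenum sample with an acinar sum of 0.248 CPM, sample 3 of week 4, held 17 CPM of Pdx1. The one with a sum of 580 CPM, sample 1 of day 2, held 14.1 CPM. These are only the lowest and the highest sums, and the part of pancreatic tissue in the regional differences of these genes was not tested. Of the islet markers, Iapp was lower in the ileum (-0.50, edgeR adjusted p = 0.0341) and Gcg, which intestinal L cells also make, was higher (1.18, edgeR adjusted p = 8.47e-13). Ins1, Ins2 and Ppy were not called, with medians of at most 0.0835 CPM in either region. The 6 islet markers had median sums of 15.97 CPM in the duodenum and 30.09 CPM in the ileum. Gcg alone had medians of 12.3 and 28.8 CPM. All 8 enteroendocrine genes were called, 7 lower in the ileum, against 62.1% of all genes called and 30.2% lower. Cck (-2.07) and Ghrl (-2.02) led, and the part of enteroendocrine cells, some of which contain PDX1, in the Pdx1 difference was not tested.

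**Figure D5:**
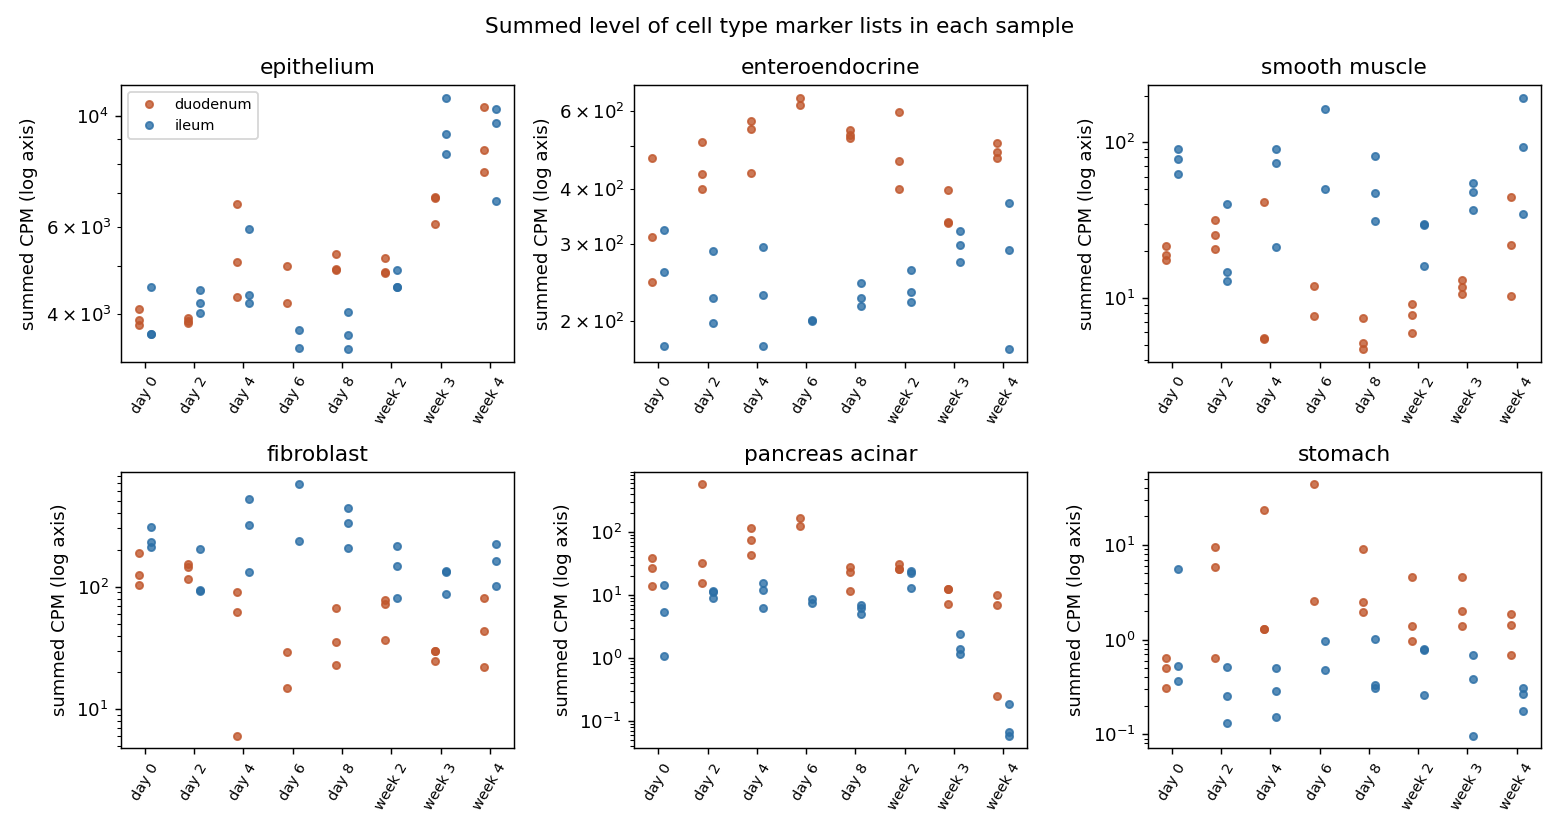
Summed CPM of 6 marker lists (logarithmic y axes) in each sample by age, duodenum in orange and ileum in blue. Smooth muscle and fibroblast sums are mostly higher in the ileum, and mean acinar sums are higher in the duodenum at all 8 ages, with duodenum sample 1 of day 2 at 580 CPM.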

How the data were processed

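RNA of 48 samples was sequenced. The authors' estimated counts per gene, deposited as whole numbers, were used; the submitters' processing notes name STAR 2.6.1d, Salmon 0.14.2 and DESeq2 1.30.1, and build mm10. A deposited normalized signal, in 40 columns without day 4 and without sample 3 of day 6, equalled the counts divided by one factor per column (largest relative deviation 4.2e-16) and gave gene symbols for 51106 of 54532 identifiers; 54409 are in GENCODE M21. Estimated counts share out ambiguous reads by a model.

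Genes were filtered with filterByExpr over 16 groups, scaled by TMM (trimmed mean of M-values) and fitted with edgeR 4.0.16 (R 4.3.3), one mean per group over 46 samples. Benjamini-Hochberg adjustment ran over all 21986 genes in each test, with calls under 0.05. The standard error is the log2 change over the square root of F. The procedure was tested on simulated data. Relations between the 8 genes used log2 of CPM plus 0.1. Mitochondrial genes took 13.1 to 35.2% of counts.

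Alternatives were relative log expression scaling, no filter, a mean count of at least 10, DESeq2 1.42.0, the compared groups alone, all 48 samples, 40 samples without day 4, a replicate block, and each sample left out. The genes named are the 8, at most 4 per list by size of the average difference, and the 2 closest in pattern to each; other names are given as chosen after their values were seen. The members and lists were chosen with earlier results of these data known. One listed gene is not reported here.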

Additional observations from a re-analysis of the deposited data

Results flagged for a closer look

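The regional difference of Gata5 varied with age, with an edgeR adjusted p of 0.00718 for the interaction. At the step from week 2 to week 3 its ileal change exceeded its duodenal change by 1.06 on the log2 scale, all 3 ileum samples of week 3 lying above those of week 2 and all 3 duodenum samples below.

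From day 0 to day 8 the ileal change of Cdx2 minus its duodenal change was -0.86 on the log2 scale. Cdx2 rose in the duodenum (0.59, edgeR adjusted p = 0.00711), and its ileal change was not called (-0.27, edgeR adjusted p = 0.312). The call of the difference was lost under 7 of 18 alternatives.

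The sample labelled ileum day 6 number 3, which the comparisons left out, held 106 CPM of Gata4, 14.5 CPM of Pdx1 and 360 CPM of Onecut2. Each of these is above the highest of the 23 ileum samples used (86.1, 6.53 and 90.0 CPM when scaled together with it) and near the 2 duodenum samples of day 6 (112 and 135, 11.1 and 11.8, and 311 and 299 CPM). The sample labelled duodenum day 6 number 3 held 44.9, 0.115 and 21.0 CPM of the same genes.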

How the results depend on the processing

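The average regional difference kept its direction and its call under all 53 alternatives for Pdx1 (-5.40 to -4.48), Onecut2 (-4.56 to -3.74), Gata4 (-1.59 to -1.32), Gata6 (-0.35 to -0.27) and Osr2 (1.23 to 1.42). Counts of the 8 genes called moved elsewhere, and the cause was not tested. Without day 4 (40 samples) they were 5 rather than 3 at day 0, 2 rather than 1 from week 2 to week 3 in the duodenum, 3 rather than 1 from day 0 to day 8 in the ileum, and 5 rather than 1 for the interaction. With all 48 samples they were 1 at day 0, 0 rather than 4 at day 6, 0 for the week 3 step in the duodenum and 0 for day 8 in the ileum. With the compared groups alone they were 1 at day 0, 2 rather than 5 at week 4, 4 rather than 2 for day 8 in the duodenum, and 2 for the week 3 step there. Without the filter they were 3 rather than 6 at day 8, 3 rather than 5 for the age effect and 1 rather than 2 for week 4 against day 0 in the duodenum, and 0 for the week 3 step there. DESeq2 gave 2 for the week 3 step in the duodenum, 2 for day 8 in the ileum and 3 for the interaction, relative log expression 2 for the first, and a mean count of at least 10 gave 3 for each of the last 2.

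Leaving out each sample gave 0 to 4 called at day 0, 3 to 4 at day 8 and 3 to 5 at week 4, 3 to 5 for the age effect in the duodenum, and 1 to 3 for the interaction. It gave 1 to 2 for week 4 and 1 to 2 for day 8 against day 0 in the duodenum, 0 to 2 for day 8 in the ileum, and 0 to 1 (duodenum) and 1 to 3 (ileum) for the week 3 step. The Cdx2 difference at day 4 (-0.24) ranged from -0.46 to 0.0101. The ileal changes of Onecut2 from day 0, -1.75 at week 4 and -1.37 at day 8, ranged from -2.33 to 0.0735 and from -1.955 to 0.45, positive without ileum day 0 sample 2. Of the members' values, 645 kept direction and call under the other alternatives, 48 gained a call, 42 lost it and 0 reversed.

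Genes called over the whole table changed by more than 1.5 times at day 0 (1342, against 2419 without day 4, 578 with all 48 and 894 unfiltered), day 2 (1762; 2903, 1024 with all 48, 5408 with the compared groups), day 4 (5855; 3851 and 354) and day 6 (7762; 0 with all 48, where 884 had an unadjusted p under 0.05). They did so at week 2 (4922; 2561 with all 48, 7426 with the compared groups), week 3 (3117; 5585 without day 4, 1376 with all 48), week 4 (6234; 2491 with the compared groups) and for the interaction (4930; 9512 without day 4, 947 with all 48). For the added differences they were 2216 for day 8 (4419 without day 4, 348 with all 48, 1207 unfiltered) and 303 for week 3 (672, 113, and 577 with DESeq2). Leaving out 1 sample brought them down to 484 at day 0 (ileum 1), 930 at day 2 (ileum 2), 3206 at day 4 (ileum 1), 4909 at day 6 (ileum 2), 3266 at week 2 (ileum 2), 1658 at week 3 (ileum 3) and 3256 at week 4 (ileum 3). It gave 2639 rather than 4234 for day 8 against day 0 in the ileum (ileum day 8 sample 1), 963 for the day 8 difference (duodenum day 8 sample 1) and 165 for that of week 3 (ileum week 3 sample 2).

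The labels do not say that equal replicate numbers mark a shared source, and the numbers were not taken as pairs. Over 23 pairs the deviations of equal numbers correlated at -0.283 to 0.6, with 15 over 0.1, and 33 of 46 samples correlated best with their own number, a hint of pairing from the data. With the replicate block the interaction called 2 of the 8 genes, Pdx1 at day 0 was called (-3.22, edgeR adjusted p = 0.00495), and Gata4 at day 2 was not (-0.97, edgeR adjusted p = 0.0511). Few reads limit Pdx1 in the ileum, and 2 samples a group limit day 6.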
